A study of Sus scrofa with 23 samples.

Results

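Trophectoderm (TE) was compared between blastocysts cloned from a Duroc and from a Laiwu donor cell line, with 1 sequenced library on each side, so 2 of the 23 libraries of the series carry the comparison. The library of Duroc clones (NT-D) came from embryos made with ear fibroblasts of 1 Duroc boar, and the library of Laiwu clones (NT-LW) from embryos made with ear fibroblasts of 1 boar of the Laiwu breed, a Chinese breed of pig. In both groups the nuclei were put into enucleated oocytes of hybrid sows that had been matured in vitro. The embryos were then cultured in vitro in low oxygen. Small pools of blastocysts were cut by hand into a TE part and a part holding inner cell mass with TE (IT). Because each breed is represented by 1 donor line and 1 pool, breed, donor animal, cell line, pool and library cannot be told apart. TE of Duroc embryos conceived in vivo (IV-D), also 1 library, was set beside the clones as values only. The boar that gave the NT-D donor cells was also the sire of all IV-D embryos. IV-D is thus related to NT-D, and nearness of NT-D to IV-D cannot be told apart from this kinship.

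Trophectoderm is the outer epithelium of the blastocyst. Its cells are joined by tight junctions, pump sodium and water into the blastocoel, and later form the placenta, and in the pig the blastocyst stays free in the uterus for a long time before it attaches. Cloned pig conceptuses are known for poor placentas.

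Levels were given as FPKM, the fragments of a gene per kilobase of its length, scaled to the depth of the library. Of the 8603 genes in the deposited table, 6669 reached an FPKM of 1 in at least 1 of the 2 TE libraries and were compared. A gene was called when its level on the log2(FPKM + 1) scale differed by more than 1 between the libraries, and differences are given as NT-D minus NT-LW. That scale understates the change of low genes. No p-value can be given with 1 library a side. The 95% intervals printed beside folds came from whole fragment numbers recovered from the FPKM values and cover counting error only, not the spread between embryos, pools or libraries. In bulk samples of this kind, fewer cells of a type and less RNA per cell cannot be told apart.

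The libraries held 15596761 (NT-D TE), 17654804 (NT-LW TE) and 14952784 (IV-D TE) fragments. The 13 protein-coding genes of the mitochondrial genome took 15.8% of the fragments in NT-D TE, 26.4% in NT-LW TE and 18.2% in IV-D TE. Their part in the levels of other genes was not tested. The labelled cell type matched its markers where the table held them. All 7 of the TE markers listed (GATA2, GATA3, TFAP2C, TEAD4, KRT8, KRT18 and ELF3, of 11 looked for) were above an FPKM of 1 in both libraries, and their summed level was 1700 FPKM in NT-D and 2669 in NT-LW. Of the 4 markers of inner cell mass in the table, NANOG was at 0 in both TE libraries, and the summed level was 1.98 FPKM in NT-D and 5.22 in NT-LW, against 21.4 and 38.8 in the IT parts. Of the 3 primitive endoderm markers in the table GATA6 alone was above 1, at 24.0 and 36.3. The 3 collagen genes that mark the donor fibroblasts and the 7 oocyte genes were all below 1 in both TE libraries, with sums of at most 0.191 and 0.988 FPKM.

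Most genes did not differ by the fold rule between the clones of both breeds. Higher in NT-D were 456 genes (6.84%), and higher in NT-LW were 307 (4.60%), of which 387 and 230 carried a symbol. The median difference over all 6669 genes was 0.14, with the middle 50% of genes between -0.24 and 0.51, so the level of a typical gene was itself slightly higher in NT-D, and each list below is read against that median. Calls within a list are read against the 6.84% and 4.60% over all genes. The balance between the directions rested on the scaling. Genes higher in NT-D were 59.8% of those called with the FPKM as deposited, 42.6% when the median ratio of the libraries was divided out, and 70.1% when both libraries were brought to the same sum. Between 10.9% and 12.5% of genes were called in each of the bands from 1 to 5, 5 to 10, 10 to 50 and above 50 FPKM, but the direction went with the level, with 110 genes higher in NT-D and 120 higher in NT-LW in the lowest band and 104 and 43 in the highest. Close to the limit, CALR stood just inside it at 1.0 and KLF17 just outside it at -0.98.

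**Figure D1:**
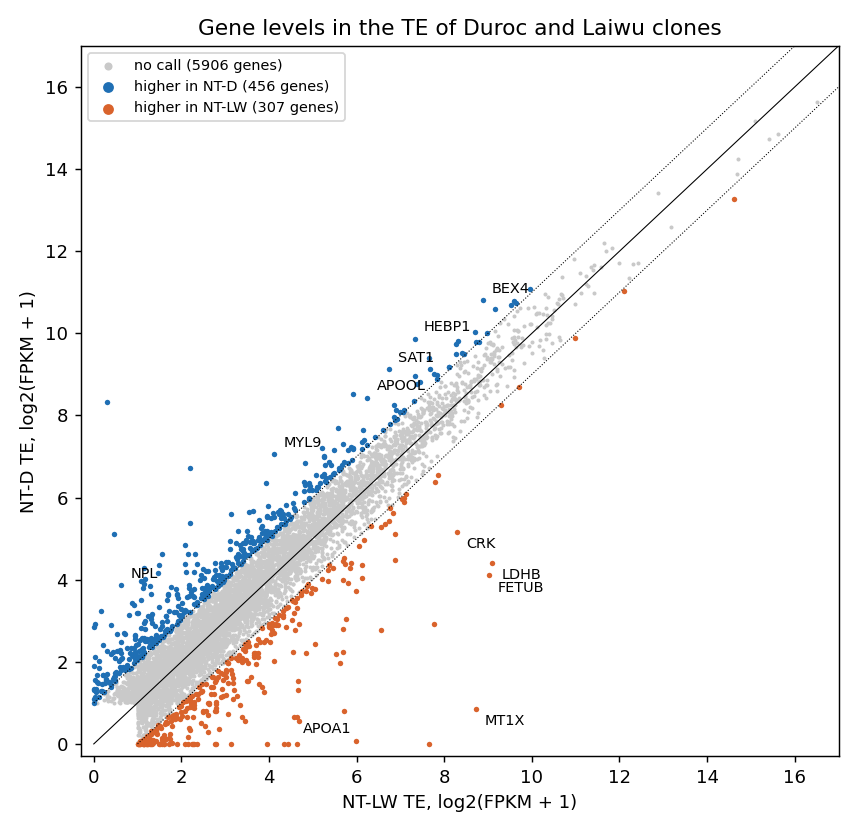
Level of each of the 6669 genes in NT-LW TE (horizontal) and NT-D TE (vertical), both as log2(FPKM + 1), 1 library each, with the genes called higher in NT-D (456) and in NT-LW (307) in colour, the line of equal levels, and dotted lines at a difference of 1. MT1X, FETUB and LDHB lie farthest below the diagonal among the labelled genes, and NPL farthest above it.

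The genes that were highest in NT-LW relative to NT-D were led by MT1X, a metallothionein, which binds zinc and other metals. MT1X was listed at 0.805 FPKM in NT-D, 420 in NT-LW and 13.8 in IV-D. On 5 fragments against 2953, the fold was 522 (95% counting interval 223 to 1608). Metallothioneins form a family of nearly identical genes, and how reads that match several of them were counted is not given. In the IT parts MT1X did not differ in this way, at 88.9 FPKM in NT-D and 97.4 in NT-LW.

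FETUB encodes fetuin B, an inhibitor of the proteases that harden the zona pellucida. Its level was 16.2 FPKM in NT-D, 519 in NT-LW and 4.01 in IV-D, a fold of 32.03 between the clones (28.9 to 35.7). The IT parts differed in the same direction, at 36.7 and 308.

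LDHB, the heart subunit of lactate dehydrogenase, was at 20.2 FPKM in NT-D, 547 in NT-LW and 19.9 in IV-D, a fold of 27.1 (24.4 to 30.2). CRK, an adaptor of growth factor and integrin signalling, was at 35.0, 315 and 32.5, a fold of 9.0 (8.52 to 9.51). LYPLAL1, a lysophospholipase-like hydrolase, was at 0.460, 24.7 and 4.75, a fold of 53.6 (28.0 to 118). For LDHB and CRK the value of the Duroc clones lay beside that of the Duroc embryos conceived in vivo, and NT-LW stood apart from both. The donor boar of the Duroc clones was the sire of those embryos.

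APOA1, the main protein of high-density lipoprotein, was at 0.574 FPKM in NT-D and 22.8 in NT-LW, with IV-D at 20.9, so here it was NT-D that stood apart. FABP5, a carrier of fatty acids, was at 2.95 and 47.8, with IV-D at 0.279. PLA2G4A, the phospholipase that frees arachidonic acid for prostaglandin synthesis, was at 4.40 and 32.0, a fold of 7.26 (6.24 to 8.49). ETNPPL, which breaks down phosphoethanolamine, was at 5.92 and 50.7. The remaining genes of the 15 named in this direction were BAD, a promoter of apoptosis, at 3.53 and 45.5, the glutathione enzymes GPX6 at 1.48 and 24.4 and GSTM3 at 3.71 and 22.5, the peptidase NAALAD2 at 7.24 and 53.3, the meiotic gene SPATA22 at 3.64 and 27.6, and the secreted ribonuclease RNASE1 at 1.61 and 13.4. In GPX6, as in APOA1, IV-D (21.1) was near NT-LW, and in the others of these 6 it was at most 8.76.

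The 15 genes named as higher in NT-D covered a narrower range of differences, from 2.40 (BEX3) to 3.23 (NPL) on the log2 scale, against -2.32 (GSTM3) to -7.87 (MT1X) in the other direction. NPL, the lyase that splits sialic acid, was at 13.6 FPKM in NT-D, 0.550 in NT-LW and 19.8 in IV-D, a fold of 24.6 (17.7 to 35.2). HEBP1, a heme-binding protein, was at 934, 159 and 797, a fold of 5.86 (5.72 to 6.0). It was the most abundant of the 15.

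MYL9, a myosin regulatory light chain, was at 133 FPKM in NT-D, 16.4 in NT-LW and 73.5 in IV-D, a fold of 8.12 (7.69 to 8.58). TNNC1, troponin C of slow muscle, was at 19.5, 1.81 and 10.6, and MFAP2, a protein of microfibrils, at 18.5, 1.22 and 8.68. KCNE1, a subunit of potassium channels, was at 40.5, 3.60 and 17.4. In these 4 genes the IV-D value lay between those of the clones.

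TIGAR, a p53 target that lowers fructose-2,6-bisphosphate and so holds back glycolysis, was at 16.8 FPKM in NT-D, 1.75 in NT-LW and 14.1 in IV-D, a fold of 9.63 (8.0 to 11.7). RMND1, needed for translation in mitochondria, was at 23.6, 1.95 and 14.6. MAP1LC3A, which decorates autophagosomes, was at 27.7, 3.25 and 23.8, and its relative MAP1LC3B differed the other way without reaching the limit, at 54.1, 89.0 and 184. STMN2, a stathmin that destabilises microtubules, was at 47.3, 7.76 and 109. The others were WFDC1 at 15.1 and 1.27, CCDC112 at 13.8 and 1.20, CLTRN, a chaperone of amino acid transporters, at 23.6 and 3.46, the hydrolase ABHD12B at 10.4 and 1.11, and BEX3 at 80.2 and 14.3. In all 15 genes the IV-D level was above the NT-LW level. The genes were picked for NT-LW values far below NT-D, so this is not a separate result.

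**Figure D2:**
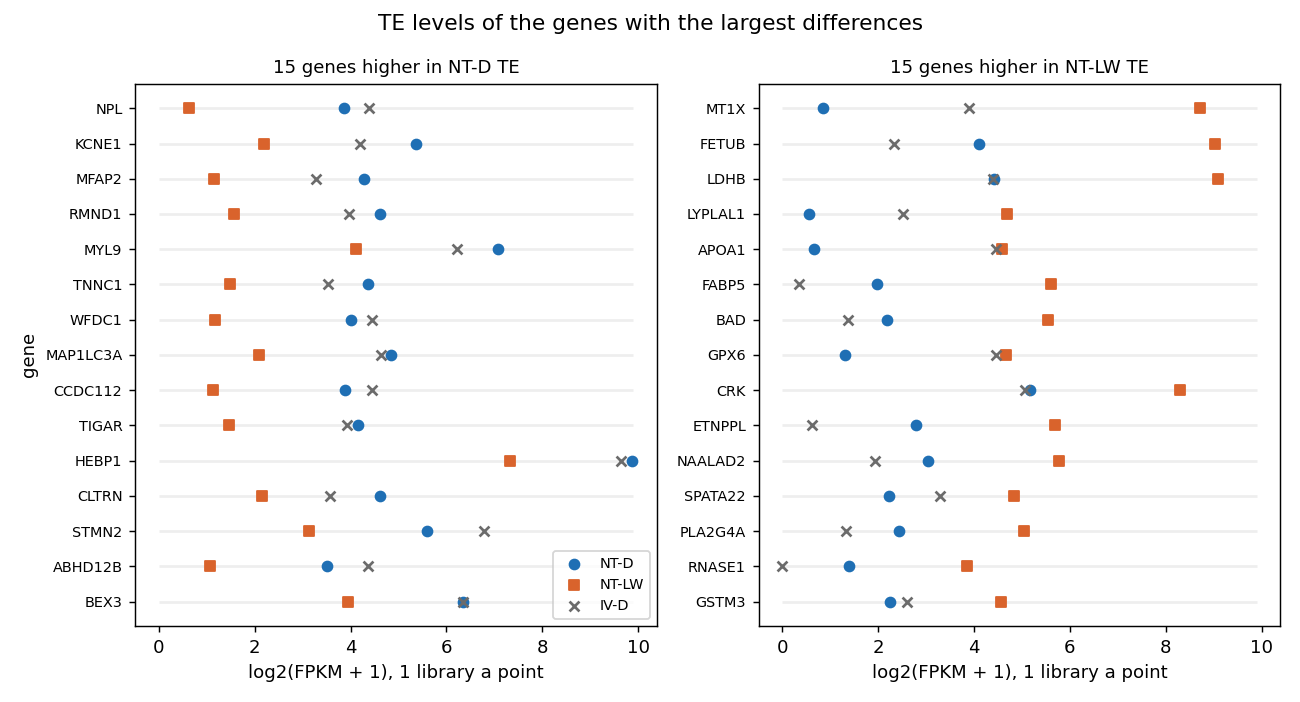
TE level as log2(FPKM + 1) of the 15 genes with a symbol that differed most in each direction among those of at least 10 FPKM in the higher library, with 1 point for each of the NT-D, NT-LW and IV-D libraries and no error, since each is 1 library. In the left panel IV-D lies to the right of NT-LW for each gene, and in the right panel it lies to the left of NT-LW for each gene, closest to it for APOA1 and GPX6. Since the genes were picked by their NT-D and NT-LW values, the side on which IV-D lies is not a separate result.

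Genes without a symbol, given here after their values were seen, included the widest difference toward NT-D. ENSSSCG00000035894 was at 321 FPKM in NT-D (1245 fragments) and 0.227 in NT-LW (1 fragment), with IV-D at 248. Its difference was 8.03 in TE, 8.67 in IT and 7.09 in morula. Reads were aligned to the assembly of a Duroc animal. A sequence or copy difference of the Laiwu genome cannot be told apart from lower expression in such near-zero NT-LW values. ENSSSCG00000023305 was listed at 0 in NT-D and at 199 in NT-LW (579 fragments), with IV-D at 2.43. ENSSSCG00000035520 was the most abundant gene called, at 9815 in NT-D and 24925 in NT-LW, with IV-D at 55.9.

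Calls among the cholesterol synthesis genes were all toward NT-LW. The pathway runs from acetyl-CoA through mevalonate and squalene to cholesterol, and its genes are commonly controlled together by sterol-sensing factors. Of the 16 members tested, 6 were called higher in NT-LW and 0 higher in NT-D, 12 were below 0, and the median was -0.60, against 0.14 for all genes, of which 4.60% were called higher in NT-LW. MVD, which makes isopentenyl pyrophosphate, was at 6.59 FPKM in NT-D, 24.6 in NT-LW and 10.3 in IV-D, a fold of 3.73 (3.16 to 4.43). CYP51A1, the lanosterol demethylase, was at 22.2, 51.3 and 34.1. In both enzymes the in vivo embryos lay between the clones.

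DHCR7, which catalyses the last step to cholesterol, was at 4.58 FPKM in NT-D, 12.8 in NT-LW and 2.82 in IV-D. INSIG1, which retains the sterol sensor in the endoplasmic reticulum, was at 15.2, 36.1 and 10.7, and STARD4, a carrier of cholesterol, at 1.81, 8.09 and 1.14. For these the NT-D value was nearer to IV-D than to NT-LW. The 10 members not called ran from EBP (67.6 and 125) to SC5D (135 and 83.7), and HMGCS1 was nearly equal at 39.5 and 37.9. None of the 16 was called in IT, where the median was -0.24.

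The 250 bases before the RefSeq start of the genes were read from the Sscrofa11.1 assembly for 14 of these 16 genes. The CCAAT box, searched as CCAAT on both strands, was in 12 of the 14 promoters (85.7%), against 31.9% of all 19505 promoters, 35.3% of those of the genes tested in TE, 30.3% of the 366 promoters of genes higher in NT-D and 45.1% of the 213 of genes higher in NT-LW. The sterol element, searched as TCACNCCAC on both strands after the values were seen, was in 2 (HMGCS1 and SQLE), against 0.805% of all promoters. Neither HMGCS1 nor SQLE was called. A match describes the letters in the window and is not evidence of a bound factor. The other motifs differed by fewer percentage points between the directions. TEAD sites, searched as GGAATG, were in 12.6% of promoters of genes higher in NT-D, 7.04% of those higher in NT-LW and 10.3% of all. The letters bound by GATA factors, AGATAA, were in 5.19%, 9.86% and 8.09%. The AP-1 site, TGAGTCA, was in 3.55%, 3.76% and 2.88%. The TATA box, searched as TATAAA, was in 9.02%, 7.98% and 9.76%. The promoters of 2 of the called genes are shown because each held 3 CCAAT boxes, with the box in capitals (as ATTGG where it lies on the other strand), 5′ to 3′ in the direction of the gene.
MVD promoter, chr6:1007850-1008099, plus strand: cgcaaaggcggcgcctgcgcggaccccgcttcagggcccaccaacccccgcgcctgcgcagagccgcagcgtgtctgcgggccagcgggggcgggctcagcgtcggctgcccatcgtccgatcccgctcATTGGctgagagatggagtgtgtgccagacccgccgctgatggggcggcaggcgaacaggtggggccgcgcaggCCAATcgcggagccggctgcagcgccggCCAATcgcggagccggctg
STARD4 promoter, chr2:116257144-116257393, minus strand: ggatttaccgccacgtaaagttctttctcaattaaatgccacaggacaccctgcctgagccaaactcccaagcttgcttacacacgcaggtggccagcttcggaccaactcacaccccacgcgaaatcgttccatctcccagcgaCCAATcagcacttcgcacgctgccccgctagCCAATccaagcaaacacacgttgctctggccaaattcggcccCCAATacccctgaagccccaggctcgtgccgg

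Of 12 genes of fatty acid synthesis and lipid storage tested, 4 were called higher in NT-LW and 0 higher in NT-D, with a median of -0.44. Over all genes 4.60% were called higher in NT-LW and 6.84% higher in NT-D. With equal sums 2 calls were left, since ACLY and ELOVL5 then missed the limit. The summed level of the list went the other way, at 1441 FPKM in NT-D and 1200 in NT-LW, with the abundant FABP3 and PLIN2 taking most of it. Beside FABP5 these were SCD, the desaturase that makes oleate (58.5 and 135 FPKM), ACLY, which supplies cytosolic acetyl-CoA (17.9 and 39.6), and the elongase ELOVL5 (6.06 and 13.4). The IV-D levels of SCD (47.5), ACLY (13.2) and ELOVL5 (6.32) were beside those of NT-D. In IT the differences of these 3 were -0.44, -0.54 and -0.42, and FABP5 was called the opposite way there, at 1.77.

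Genes of the mitochondrial genome, which in a clone comes mainly from the recipient oocyte, were lower in NT-D than in NT-LW in 12 of 13 cases, with a median of -0.72. ND3 (949 FPKM in NT-D, 2021 in NT-LW and 1580 in IV-D) and ND6 (2091, 4414 and 1951) passed the limit, as did 4 genes with the median ratio divided out and 0 with equal sums. The exception to the direction was ATP8, at 135, 82.7 and 557. ATP8 overlaps ATP6 and ND4L overlaps ND4, and how reads in the overlaps were counted is not given. In IT the median of the 13 was 0.27, with 7 above 0 and 6 below. Their share of the fragments was still lower in NT-D there, at 11.6% against 13.7% in NT-LW. The 46 nuclear genes of oxidative phosphorylation had 0 calls in either direction and a median of 0.15, close to all genes. NDUFS1 (253 and 137) and SDHD (1363 and 772) were among their largest differences. Over all genes 6.84% were called higher in NT-D and 4.60% higher in NT-LW. Of the mitochondrial genome list, 0 were called higher in NT-D and 15.4% higher in NT-LW.

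Of 23 members of the unfolded protein and integrated stress response, 1 was called higher in NT-D and 2 higher in NT-LW, with a median of -0.28. That is 4.35% and 8.70%, against 6.84% and 4.60% of all genes. CALR was the call higher in NT-D, and with the median ratio divided out it was lost and the calls were 0 and 5. The chaperones PDIA4 (41.7 FPKM in NT-D, 106 in NT-LW and 14.4 in IV-D) and HSPA5 (675, 1242 and 172) were lower in NT-D, the second without passing the limit, while the calcium-binding chaperone CALR was higher (241, 120 and 64.2). PSAT1, of serine synthesis, was at 93.2, 232 and 56.4. Both clone libraries were above IV-D in these 4 genes.

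Of 18 p53 targets and apoptosis genes tested, 5 were called higher in NT-D and 1 higher in NT-LW, where 6.84% and 4.60% of all genes were called, and the median was 0.38. MDM2, which targets p53 for degradation, was at 111 FPKM in NT-D, 50.01 in NT-LW and 46.8 in IV-D. CDKN1A, the p21 inhibitor of the cell cycle, was at 13.1, 5.50 and 14.96, and ZMAT3 at 28.8, 11.5 and 22.2. The members called also included the antiapoptotic genes BCL2L1 (4.94, 1.21 and 3.31) and BIRC5 (62.0, 28.9 and 65.3). TP53I3 was the call in the other direction, at 9.14, 20.6 and 7.53. BAD, the promoter of apoptosis given above as higher in NT-LW, was not in this list. MDM2, CDKN1A and BIRC5 were not called when the median ratio was divided out, which left 2 calls higher in NT-D and 1 higher in NT-LW, and TP53I3 was not called with equal sums.

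The cell cycle list held calls both ways, 3 higher in NT-D and 3 higher in NT-LW of 29 tested, with a median of 0.43. Each direction took 10.3% of the list, against 6.84% and 4.60% of all genes. Without the minimum level the median was 0.04, equal to the 0.04 of all genes, and the calls were 2 and 4 with the median ratio divided out, 6 and 3 with equal sums and 4 and 6 with a pseudocount of 0.1. TOP2A, the topoisomerase of dividing cells, was at 48.9 FPKM in NT-D, 10.6 in NT-LW and 20.2 in IV-D, a fold of 4.59 (4.34 to 4.86). CENPF, of the kinetochore, was at 27.6, 9.18 and 13.2. Called higher in NT-LW were the cyclin CCNE2 at 0.598, 3.04 and 1.13, the replication licensing factor CDC6 at 0.735, 3.23 and 1.61, and the inhibitor CDKN1C at 3.28, 9.44 and 6.08. In IT, TOP2A (28.3 and 20.1) and CENPF (16.9 and 13.0) differed by less than the limit.

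Lysosomal and autophagy genes had 4 calls higher in NT-D (15.4%) and 1 higher in NT-LW (3.85%) of 26, with a median of 0.42. The shares over all genes were 6.84% and 4.60%. With the median ratio divided out the calls were 3 and 3, ATP6V0D1 being among those lost. The protease CTSA was at 4.55 FPKM in NT-D, 0.534 in NT-LW and 8.80 in IV-D, and the proton pump subunit ATP6V0D1 at 144, 68.8 and 96.9. CTSC went the other way at 0.867, 3.61 and 6.55. CTSA was also called higher in NT-D in IT.

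Antioxidant genes gave 4 calls higher in NT-D (17.4%) and 1 higher in NT-LW (4.35%) of 23, and their median was 0.10, against 0.14 for all genes. For this and the 2 lists below, the shares over all genes were 6.84% and 4.60%. With the median ratio divided out the calls were 2 and 2, without GSTO1, and with a pseudocount of 0.1 they were 4 and 3. MGST1, a glutathione transferase of membranes, was at 724 FPKM in NT-D, 306 in NT-LW and 980 in IV-D, and PRDX3, the mitochondrial peroxiredoxin, at 279, 118 and 250. GSTO1 was at 4.11, 1.40 and 19.2. GSTM3 was the call higher in NT-LW, and its difference of -2.32 was the largest of the list. GPX6, also higher in NT-LW, was not in the list. Of the heat shock genes, 2 of 13 were called higher in NT-D (HSF2 at 17.4 and 4.86, HSPA9 at 580 and 273, the second not with the median ratio divided out) and 1 higher in NT-LW (HSPB1 at 0.366 and 1.75). In glycolysis 1 of 13 was called on each side, PGAM1 (109 and 41.4) higher in NT-D and LDHB higher in NT-LW.

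Few of the identity and function genes of trophectoderm were called. Over all genes 6.84% were called higher in NT-D and 4.60% higher in NT-LW. Lists this short can hold 0 calls at those shares. Of 13 TE markers tested, 0 were called. Their median was 0.08, and -0.06 with the median ratio divided out. GATA3, a regulator of TE fate, was at 18.5 FPKM in NT-D and 15.1 in NT-LW, GATA2 at 12.0 in both, TFAP2C at 6.30 and 5.91 and TEAD4 at 7.47 and 5.90. The keratins were higher in NT-LW without passing the limit, KRT18 at 917 and 1593 and KRT8 at 735 and 1033, and 0 of 13 genes of keratins and junctions were called. PTGES, which makes prostaglandin E2, was at 2038 and 2724, and PTGS2 at 395 and 349. Of 7 steroid and pregnancy signals 1 was called, SULT1E1, the sulfotransferase that inactivates oestrogen, at 1.49, 8.23 and 0.177 in IV-D.

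Of the genes that build the blastocoel, 1 of 15 (6.67%) was called on each side, near the 6.84% and 4.60% of all genes. The water channel AQP11 was the call higher in NT-D, at 2.82 FPKM in NT-D, 0.700 in NT-LW and 1.06 in IV-D. The tight junction genes CLDN6 (156 and 90.6) and F11R (14.9 and 7.26) were not called. Of 13 Hippo genes MOB1A alone was called (13.4 and 6.16), and not with the median ratio divided out. The proteasome (28 genes, median 0.16) and the enzymes of DNA methylation and histone lysines (14 genes, median 0.08) had 0 calls.

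Small lists gave few calls, where 6.84% of all genes were called higher in NT-D and 4.60% higher in NT-LW. Of 8 inner cell mass and epiblast genes ESRRB was called higher in NT-D (4.65 and 1.34 FPKM), and SPIC (2.06 and 8.08) and GSC (0 and 1.04) higher in NT-LW. Of 4 primitive endoderm genes tested 1 was called, APOA1. Of 4 interferon genes tested, IFI6 was at 1.02 in NT-D and 5.94 in NT-LW, and ISG15 was at 0 against 1.34, at least 14.7-fold lower in NT-D when set against a floor of 3 fragments in that library. Of 17 mismatch repair genes, PMS1 (18.0 and 5.82) was called higher in NT-D, and RFC4 (19.6 and 68.7) was among those called higher in NT-LW. Of 8 imprinted genes INPP5F (3.87 and 1.11) and CDKN1C were called, in opposite directions. Of 17 genes of amino acid transport and synthesis, ARG2 (34.0 and 15.1) was called higher in NT-D, though not with the median ratio divided out, and PSAT1 higher in NT-LW. The 1 cumulus cell gene tested, PTGS2, was not called, and 0 genes of the fibroblast and oocyte lists reached the minimum level.

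**Figure D3:**
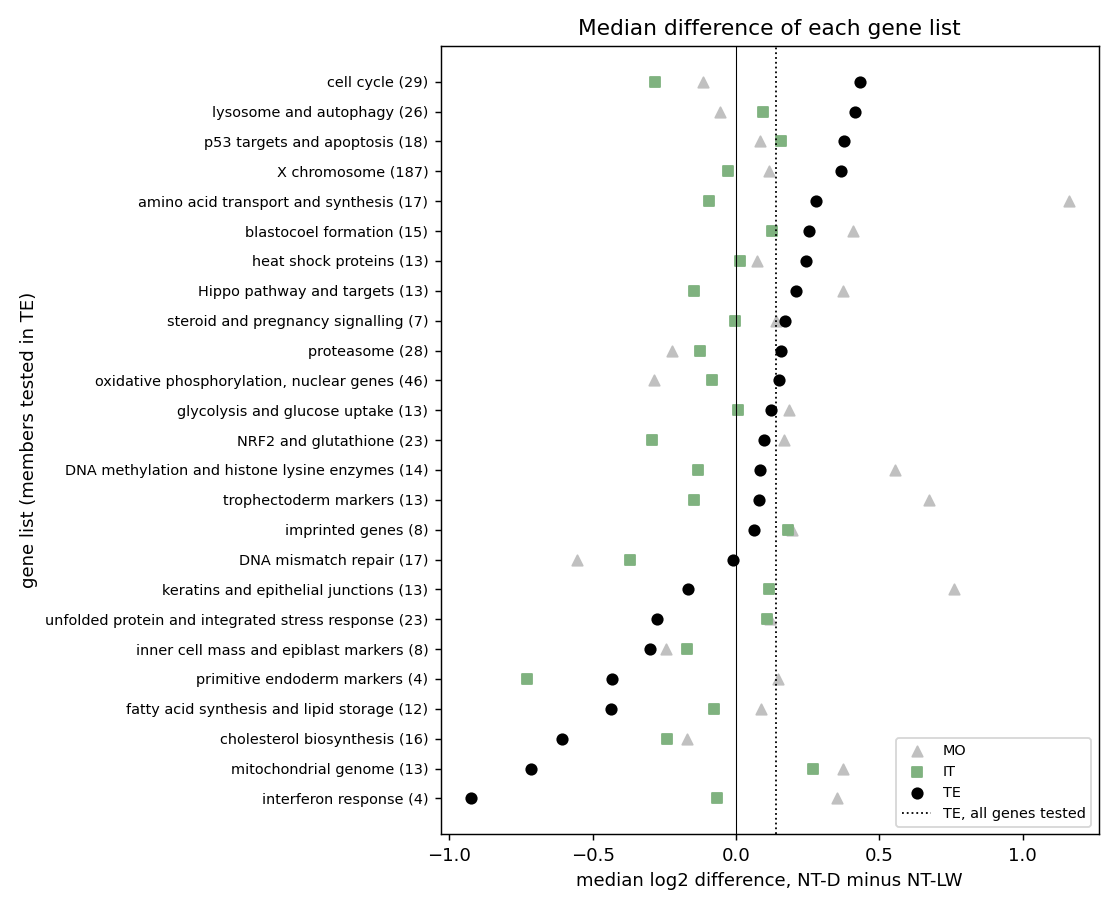
Median difference (NT-D minus NT-LW, on the log2(FPKM + 1) scale) of each gene list with at least 4 members tested in TE, for TE, IT and morula (MO), with the number tested in TE in brackets and the dotted line at the TE median of all genes, 0.14. Cholesterol (-0.60), fatty acid (-0.44) and mitochondrial genome (-0.72) lists lie left of 0 in TE, and cell cycle (0.43), lysosome (0.42), p53 (0.38) and the X chromosome (0.37) to the right of the dotted line.

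The X chromosome, which was looked at after its values were seen, had a larger share of genes higher in NT-D than any autosome. All donors were male, and so were the clones. The paper states that IV-D embryos were not sexed and that males and females were pooled. In X-linked values, sex therefore cannot be told apart from the other differences between IV-D and the clones. Of 187 X-linked genes tested, 28 (14.97%) were called higher in NT-D and 6 (3.21%) higher in NT-LW, and the median was 0.37. On the 18 autosomes the share higher in NT-D ran from 1.35% to 9.32% and the median from -0.02 to 0.17. The X-linked median was -0.03 in IT and 0.11 in morula. Without the minimum level the X-linked median was 0.09, against 0.04 for all genes. With the median ratio divided out, 21 X-linked genes were called higher in NT-D and 12 higher in NT-LW.

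The 28 included abundant genes. BEX4, of a family of small adaptor proteins, was at 1786 FPKM in NT-D, 472 in NT-LW and 2658 in IV-D, and BEX3 was at 80.3 in IV-D, beside 80.2 in NT-D. SAT1, the enzyme that starts polyamine breakdown, was at 561, 106 and 760, a fold of 5.28 (5.12 to 5.45). APOOL, of the cristae of mitochondria, was at 345, 74.9 and 387. In all of these NT-LW was the low library, but they were picked as higher in NT-D than in NT-LW.

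Others were close to absent in NT-LW. BTK, a tyrosine kinase, was at 6.53 FPKM in NT-D and 8.16 in IV-D, with 1 fragment in NT-LW against 273, a ratio of 309 (55.0 to 12250). ARMCX1 was at 8.41, 0.127 and 3.62. The pair lies close together on the X chromosome in Sscrofa11.1, BTK at chrX:82981512-83014475 and ARMCX1 at chrX:83132775-83136924. Here too a Laiwu sequence or copy difference from the Duroc assembly cannot be told apart from lower expression. Also among the 28, the histone deacetylase HDAC8 was at 6.0, 1.24 and 4.97, and the chromatin remodeller SMARCA1 at 7.66, 1.36 and 2.03. The 6 called the other way (MPC1L, ASB11, MCTS1, CLIC2, XK and FAM133A) were low, from 1.31 to 5.89 FPKM in NT-LW.

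**Figure D4:**
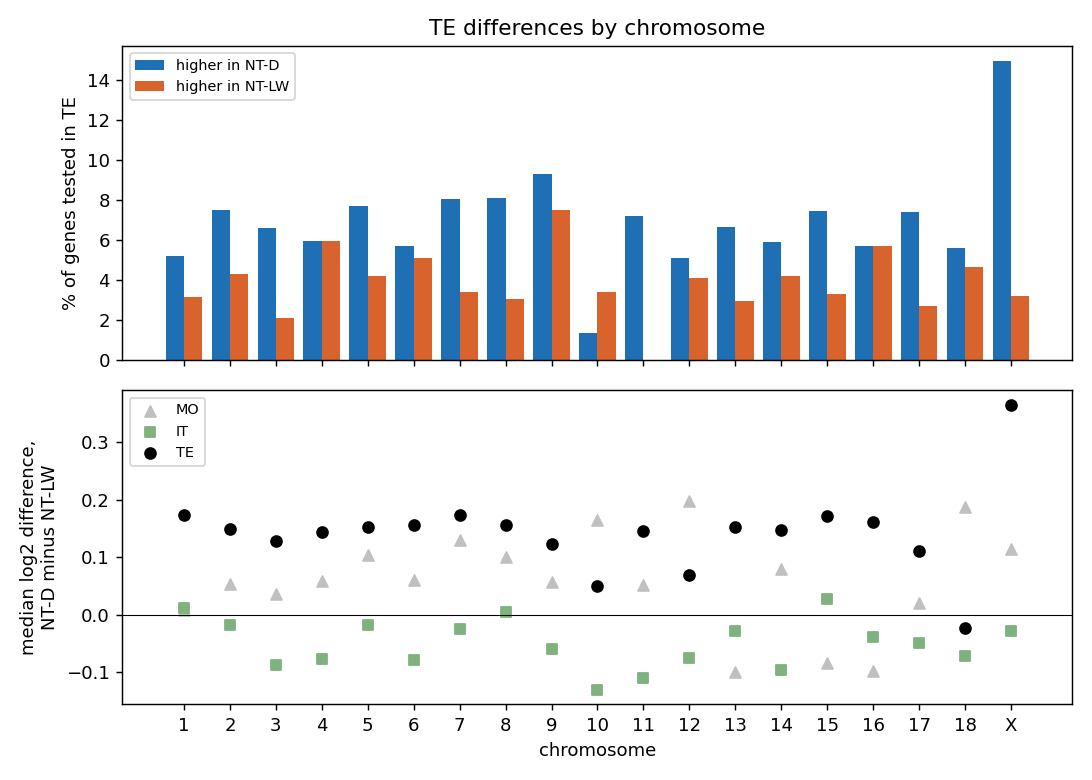
Upper panel: percent of the genes tested in TE that were called higher in NT-D or in NT-LW, for each chromosome. Lower panel: median log2 difference (NT-D minus NT-LW) by chromosome in TE, IT and morula (MO), 1 library a side. The X chromosome stands highest in TE, at 14.97% higher in NT-D and a median of 0.37, and its IT median is -0.03.

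The IT parts and the morulae of the same donor lines were set beside TE, each again with 1 library a side. In IT, 186 genes were higher in NT-D (2.70%) and 175 higher in NT-LW (2.54%) of 6898, and in morula 1117 (14.1%) and 554 (7.02%) of 7895. Of the 456 genes higher in NT-D TE, 91 were also higher in NT-D IT, which is 19.96% of the TE genes and 48.9% of the IT genes, and 2 were called the opposite way. Of the 307 higher in NT-LW TE, 85 were also higher in NT-LW IT (27.7% and 48.6%), and 12 were opposite. The IT part holds TE cells and may have come from the same blastocysts, so it is not an independent repeat. Morula shared fewer calls. Among the genes higher in NT-D TE, 73 (16.01%) were called the same way in morula and 33 (7.24%) the opposite way. These shares were close to those over all genes tested in morula, 14.1% higher in NT-D and 7.02% higher in NT-LW. Among the genes higher in NT-LW TE, 58 (18.9%) were called the same way, above the 7.02%. The opposite way went 37 (12.05%), against the 14.1%.

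In all of TE, IT and morula 36 genes were higher in NT-D, 23 of them with a symbol, and 25 were higher in NT-LW, 15 with a symbol. In the Laiwu clones LDHB stood higher at each of these later stages, from 1.87 FPKM at the 1-cell stage to 31.2 at 4-cell, 104 at 8-cell, 240 in morula and 558 in IT, while the Duroc clones went from 3.41 to 4.50, 7.38, 30.8 and 20.7. In IV-D the gene was at 51.0 in IT. CRK separated the clones from the 4-cell stage, at 33.1 in NT-D and 111 in NT-LW, and stayed apart at 32.7 and 412 in 8-cell embryos, with IV-D at 51.9 there. LYPLAL1 was called the other way at the 2-cell stage (5.51 and 1.97) and higher in NT-LW from the 8-cell stage (6.74 and 30.4). MAT2B, a regulatory subunit of the enzyme that makes S-adenosylmethionine, was at 2.93 and 10.6 in TE, and ACP6, a lysophosphatidic acid phosphatase, at 4.54 and 15.3.

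On the NT-D side, HEBP1 was at 81.8 FPKM in NT-D morula and 12.2 in NT-LW morula, and 686 and 144 in IT. KCNE1 was at 68.0 and 10.7 in morula and 47.5 and 8.04 in IT. MYL9 was at 22.3 and 2.69 in morula and 77.7 and 19.1 in IT, with IV-D at 15.2 and 77.0. STMN2 was at 84.9 and 5.02 in morula, after a call the other way at the 8-cell stage (1.80 and 5.79). SERPINB5, a serpin, was at 2.74 in NT-D TE and listed at 0 in NT-LW TE, a level at least 52.1-fold higher against a floor of 3 fragments in that library. In HEBP1, KCNE1, MYL9 and STMN2 the IV-D level in morula and IT was above that of NT-LW. These genes were picked for low NT-LW values there, so this is not a separate result.

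**Figure D5:**
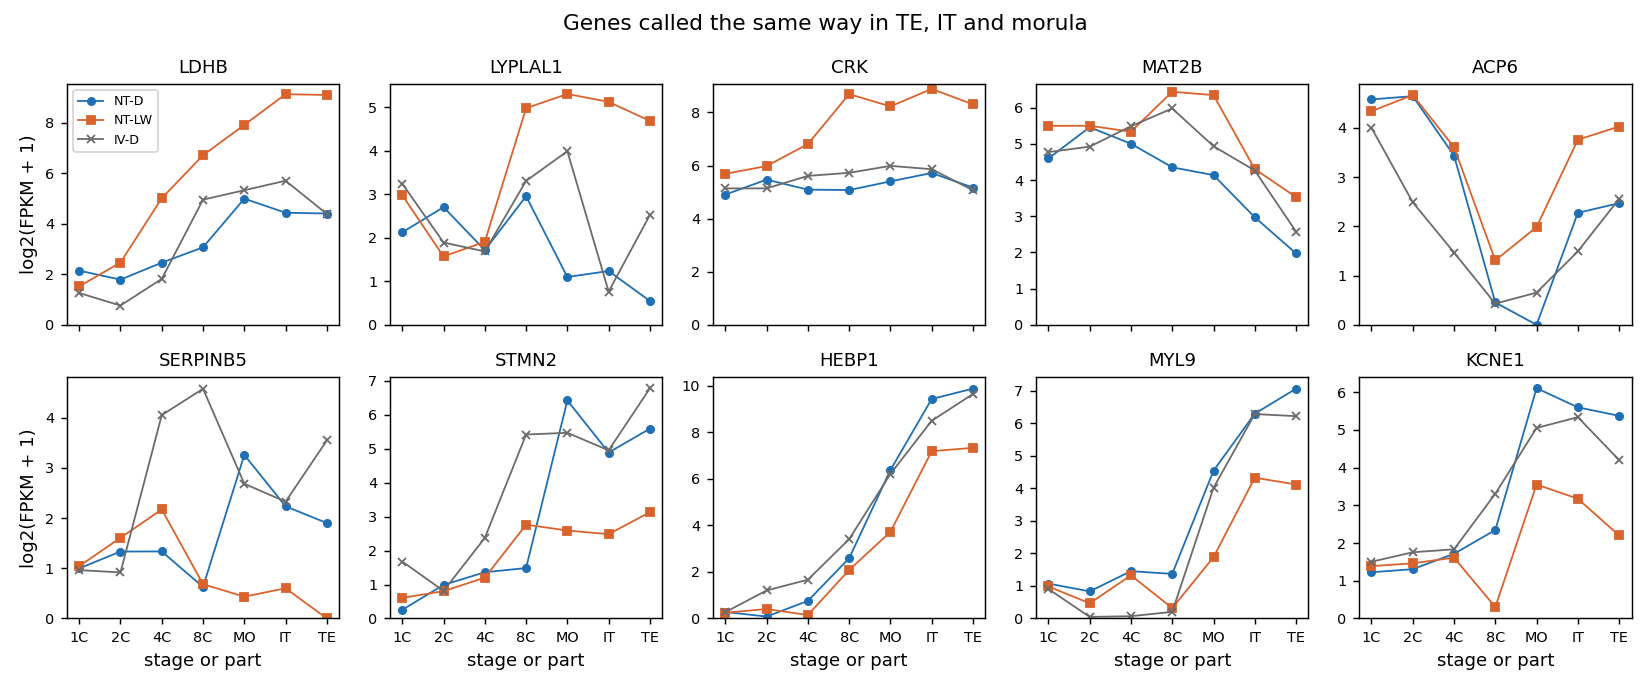
Level as log2(FPKM + 1) from the 1-cell stage to morula (MO) and in the IT and TE parts, 1 library a point, for the 5 genes in each direction whose smallest difference over TE, IT and morula was largest. In the upper row NT-LW runs above NT-D in the last 3 columns and LDHB and CRK part from the 4-cell stage on, and in the lower row NT-D is the higher clone in the last 3 columns.

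Other genes were called in TE and not in the IT parts. CCDC112 was at 3.71 FPKM in NT-D IT and 4.04 in NT-LW IT, MAP1LC3A at 18.3 and 15.4, PGAM1 at 98.1 and 84.0, HSF2 at 13.0 and 12.1, and PMS1 at 17.5 and 16.1. BAD was at 102 and 159 and GSTM3 at 9.50 and 15.5. That these pass the limit in TE and not in IT does not show that the differences themselves differ, which could not be tested with 1 library a condition.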

How the data were processed

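Libraries of small pools of embryos were made with SMART-Seq v4 and sequenced as pairs. The authors aligned reads with HISAT2 2.0.4 to Sscrofa11.1, the assembly of a Duroc animal, counted them with HTSeq 0.9.1 on Ensembl genes and deposited FPKM in 1 table of 8603 genes. By its name the table holds differentially expressed genes, and how they were chosen is not given in the sources used here. The authors' FPKM are scaled to the depth of each library.

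Whole fragments were recovered from the FPKM steps for 100.0% of genes (within 0.02 of a whole number), giving depths of 14952784 to 22991067. Genes of at least 1 FPKM in either library were compared on log2(FPKM + 1), with Python 3.11.15, pandas 2.3.3 and scipy 1.17.1, after the recovery was tested on simulated data. A call needed a difference above 1. Named were the 15 genes with a symbol and at least 10 FPKM that differed most in each direction, up to 4 members of each of 27 lists, and 5 genes a direction called in TE, IT and morula. X-linked genes and other list members given beside these, and genes without a symbol, were chosen after their values were seen. Members and lists were chosen with earlier results of these data known. Replicates of other conditions were not analysed here. Alternatives were another pseudocount, other minimums, both rescalings and a binomial test on fragments, which compares libraries and not conditions. Promoters came from the RefSeq annotation of Sscrofa11.1. Some genes are not reported here.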

Additional observations from a re-analysis of the deposited data

Results flagged for a closer look

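With 1 library in each condition, no group was large enough to look for an outlying sample. The genes below were called in 1 direction in TE and in the opposite direction in IT or morula. Each value is 1 library against 1 library, and the difference between the stages was not tested.

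FABP5 was lower in NT-D than in NT-LW in TE (-3.63 on the log2 scale) and higher in IT (1.77, 69.2 FPKM against 19.6). RNASE1 was lower in TE (-2.46) and higher in both IT (1.06) and morula (1.19). APOA1 was lower in TE (-3.92) and IT (-1.66) and higher in morula (1.65). SPATA22 followed the same course, with -2.62 in TE and 1.95 in morula. PSAT1 was lower in TE (-1.30) and IT (-2.39) and higher in morula (3.18, 53.6 FPKM against 5.04). The reverse order was seen for SAT1, higher in NT-D TE (2.39) and lower in morula (-1.46), for MGST1 (1.24 and -1.21) and for the water channel AQP11 (1.17 and -2.44).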

How the results depend on the processing

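No paired analysis was possible because each condition had 1 library, and for the same reason no library could be left out. Values are given as genes higher in NT-D and in NT-LW, against 456 and 307 in TE, 186 and 175 in IT and 1117 and 554 in morula. With a pseudocount of 0.1 the counts were 672 and 498 in TE, 286 and 330 in IT and 1487 and 705 in morula, and the genes higher in NT-LW in both TE and IT went from 85 to 142. A minimum of 5 FPKM gave 346 and 187 in TE and 723 and 475 in morula. Bringing the libraries to the same sum gave 740 and 315 in TE, and dividing out the median ratio 304 and 410. A binomial test on the recovered fragments gave 836 and 743 in TE, 396 and 442 in IT and 1749 and 761 in morula. It compares libraries and not conditions. Removing the minimum changed none of these counts, since a gene below 1 FPKM on both sides cannot pass the limit. The median of all genes in TE was 0.14 as reported, 0.26 with equal sums and -0.01 with the median ratio divided out.

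Of 144 genes named by rule, 81 were called in TE, and under another pseudocount and both rescalings 0 of these reversed and 12 lost their call. Among the other list members given above, BIRC5 and ATP6V0D1 also lost it with the median ratio divided out and TP53I3 with equal sums. MDM2, CDKN1A, ARG2, CALR, GSTO1, HSPA9 and MOB1A lost it with the median ratio divided out, and ACLY, ELOVL5, ND3 and ND6 were among those that lost it with equal sums. Of the 26 medians (25 lists and the X chromosome), 15 kept their sign under all 5 settings, among them cholesterol, fatty acid, mitochondrial genome, p53, lysosome and cell cycle. The 11 that changed sign lay between -0.01 and 0.21, except the interferon list, which went from -0.92 to 0.00 without a minimum. X-linked calls higher in NT-D were 21 to 40 under the settings added after the data were seen, and those higher in NT-LW 1 to 12.

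The lowest levels limit the folds most. At 3 fragments a gene of 1 kilobase stands at 0.192 FPKM in NT-D TE and 0.170 in NT-LW TE.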
